A study of Mus musculus with 6 samples.

Results

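The 41 genes described here encode the folding machinery of the endoplasmic reticulum (ER), its degradation machinery and the factors of the unfolded protein and integrated stress response. They were chosen by symbol from the gene table, which holds 46603 genes, and all 41 were present. RNA-Seq was performed on sciatic nerves at P9 from 3 *Ep400ΔPNS* mice, which carry conditional *Ep400* alleles together with a *Dhh::Cre* transgene, and from 3 control mice, which carry conditional *Ep400* alleles without the transgene. The *Dhh::Cre* transgene deletes in Schwann cells (SCs). In older mutant nerves the paper found that cells without the SC marker Sox10 still had Ep400 protein. The labels give a mixed 129SvJ/C57Bl/6J background for all mice and the methods a mixed C3H x C57Bl/6J one.

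The measure used is 1 value per gene, the mean over all 6 libraries of read counts divided by size factors, which is the mean in what follows. It joins both genotypes, so it gives no difference between *Ep400ΔPNS* and control nerves, no spread between mice and no test, and the order of genes below is a description. It also cannot tell fewer cells of a type from less RNA per cell. Differences between the genotypes were not analysed here, since only the authors' own comparison would give them. The means sum to 25608535, which stands for the depth of an average library. To compare genes, each mean was divided by the length of the gene's exons, and the percentile is the share of 18574 protein-coding genes with a mean above 0 that lay lower by this value.

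Secreted and membrane proteins fold in the ER with the help of chaperones, lectins and disulfide isomerases, and those that fail are drawn back into the cytosol and degraded. When unfolded proteins build up, the sensors IRE1, ATF6 and PERK raise the folding capacity and lower protein synthesis. PERK acts through eIF2α phosphorylation and ATF4, a pathway that also answers to a lack of amino acids. Myelinating SCs put large amounts of membrane and matrix proteins through the ER, and misfolded myelin proteins can activate this response in mouse models of neuropathy.

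The nerve samples carried the markers of their tissue. All 12 SC markers lay above the 90th percentile by mean per kb, and *Sox10*, which encodes a transcription factor of the SC lineage, had 3752 per kb. All 7 fibroblast markers lay there too, with the collagen gene *Col1a1* at 99007 per kb. Markers of plasma cells, whose ER is unusually large, were low. *Jchain* and *Mzb1* had means of 1.88 and 0.987, and the broader marker *Sdc1* one of 734. Of the neuronal markers, *Rbfox3*, *Snap25* and *Syn1* lay at percentiles of 14.7, 26.8 and 36.4, and *Tubb3*, which is less restricted to neurons, at 77.8. Among markers of other cell types, the median percentile was 76.5 over 6 macrophage, 77.1 over 4 endothelial and 94.2 over 4 mural markers. It was 97.1 over 4 skeletal muscle and 95.2 over 3 blood markers. The paper regards muscle cell contamination as unlikely, but wrote this of muscle genes upregulated in *Ep400ΔPNS* nerves and not of pooled levels. Medians were lower for 3 T cell (18.6), 4 plasma cell (21.3) and 4 neuronal markers (31.6). Which cells the members' reads came from was not tested.

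To show the sequences through which chaperone genes are known to be controlled, the promoters were searched for the ER stress response element (ERSE), the site of ATF6 and the CCAAT factor NF-Y. The windows run from 250 bases before to 50 after the RefSeq transcription start on GRCm38.p6, and 36 of the 41 members have one. *Hyou1*, *Manf*, *Derl1*, *Atf6* and *Ppp1r15b* have none and were not searched. The ERSE, which is CCAAT and CCACG with 9 free bases between them, was searched on both strands and was found in 9 of these 36 members, compared to 37 of all 27025 genes with a window (0.137%). The element was first described in promoters of chaperone genes such as *Hspa5*, so its presence in members is not independent of how they were chosen. The 9 members were among these 37 genes. The copies are shown 5′ to 3′ on the strand of the gene, with the fixed letters of the element in capitals. Those that read CGTGG first and ATTGG last are matches on the other strand.
*Hspa5*, chr2:34772019-34772048, plus strand: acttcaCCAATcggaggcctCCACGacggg
*Hsp90b1*, far copy, chr10:86705633-86705662, minus strand: acaagcCCAATcgcaaggagCCACGcttcg
*Hsp90b1*, near copy, chr10:86705528-86705557, minus strand: agagtgCGTGGtgaggcacgATTGGtgagt
*Calr*, chr8:84847070-84847099, minus strand: acaacgCGTGGtcgaccctcATTGGcccat
*Canx*, chr11:50325795-50325824, minus strand: tattgaCCAATcaccacgctCCACGaagaa
*Pdia6*, chr12:17266485-17266514, plus strand: cagagaCCAATgaaaggcggCCACGgcgtg
*Dnajc3*, chr14:118937821-118937850, plus strand: ccacaaCCAATcagcgccaaCCACGacccg
*Creld2*, chr15:88819514-88819543, plus strand: gcttctCGTGGcgagcctcaATTGGtccac
*Syvn1*, chr19:6046526-6046555, plus strand: tcgcaaCCAATcggcggtagCCACGggaac
*Derl3*, chr10:75893236-75893265, plus strand: ctctacCGTGGgacttccccATTGGctagc

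The ERSE copies lay upstream of the RefSeq start in all 9 members. They ran from -212 for the far copy of *Hsp90b1* to -26 for the end of that of *Syvn1*. In GENCODE M21 *Hspa5* starts earlier, at 34771970, so that its copy lies inside the annotated gene. *Hsp90b1* was the member with 2 copies, and the others had 1 each. Chaperones, isomerases and co-chaperones held most of them, with 7 of their 14 searched genes, and *Syvn1* and *Derl3* of ER-associated degradation held the others. No exact match stood in the windows of 3 genes of the sensors and *Xbp1*, 6 ATF4 arm genes and 5 biosynthetic enzymes. *Atf6* and *Ppp1r15b* had no window, and *Ddit3* of the ATF4 arm matched with 1 mismatch allowed.

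The shorter relative ERSE-II, which is ATTGG and CCACG with 1 free base between them, was searched on both strands and stood in 2 members and in 0.0444% of all genes with a window. *Herpud1* carried it upstream of the start and *Dnajb11* just after it. The C/EBP-ATF response element (CARE), to which ATF4 binds with C/EBP partners, was searched as TGATGNAAN or TTGCATCA on both strands. The second is contained in the first when read on the opposite strand. It was found in 5 members (13.9%), compared to 4.50% of all genes with a window, and 4 of these 5 belonged to the ATF4 arm or its enzymes. The remaining member was *Herpud1*, whose window thus held both an ERSE-II and a CARE. Known ATF4 targets were among the genes chosen as members, so these CARE counts are not independent of that choice. The matches are shown in the same way as the ERSE copies. In GENCODE M21 *Trib3* starts at 152344032 on the minus strand, so that its CARE lies upstream of the annotated gene. *Asns* and *Nupr1* start there at 7693254 and 126630861, also on the minus strand. The CARE of each thus lies inside the annotated gene. The cAMP-type element TGACGTCA stood in *Ppp1r15a* alone among members and in 2.03% of all genes with a window. The element TGACGTGG, known from XBP1 binding, was found in 0 of 36 members and in 0.714% of all genes with a window. The windows of the members had a median GC content of 61.8%, compared to 52.7% over all windows.
*Herpud1*, CARE and then ERSE-II, chr8:94386301-94386402, plus strand: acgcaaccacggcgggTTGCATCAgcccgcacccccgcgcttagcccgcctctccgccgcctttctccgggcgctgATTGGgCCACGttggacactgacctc
*Dnajb11*, ERSE-II, chr16:22857846-22857868, plus strand: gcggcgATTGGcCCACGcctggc
*Nupr1*, CARE, chr7:126625567-126625586, minus strand: gccagaTTGCATCAgacagg
*Chac1*, CARE, chr2:119351043-119351062, plus strand: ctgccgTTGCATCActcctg
*Trib3*, CARE, chr2:152344033-152344053, minus strand: ctcaggtTTaCATCAgccggg
*Asns*, CARE, chr6:7693218-7693238, minus strand: gccacaTGATGaAActtcccg
*Ppp1r15a*, cAMP-type element, chr7:45526267-45526286, minus strand: ctccggTGACGTCAgcacag

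**Figure D1:**
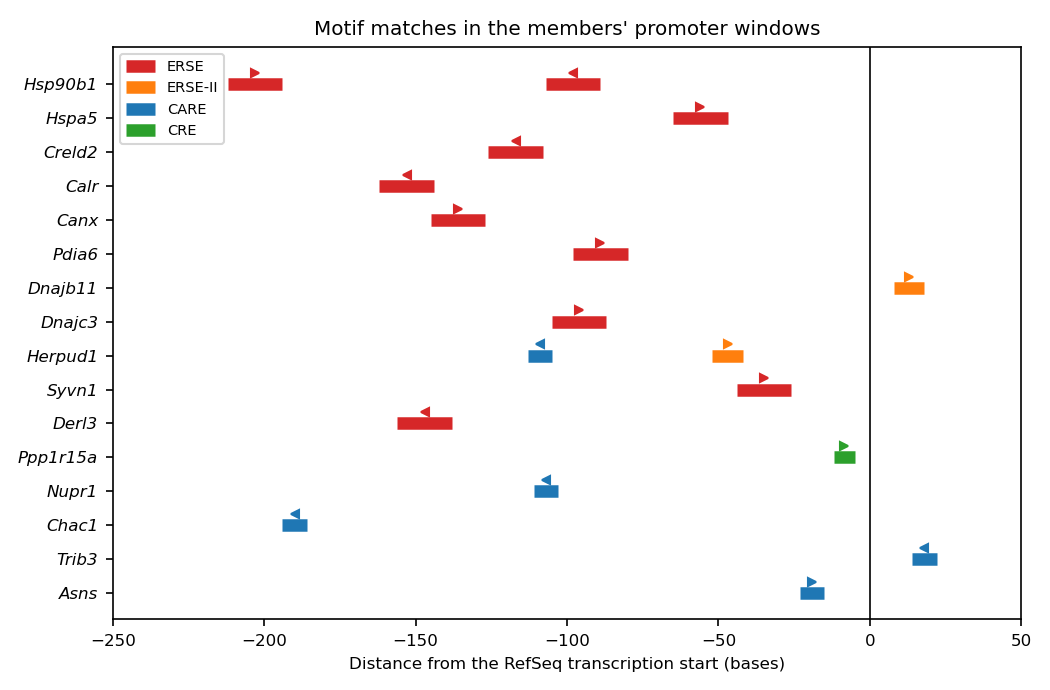
Motif matches in the promoter windows of the 16 members with a match, by distance in bases from the RefSeq transcription start (vertical line). Bars span the ERSE (red), ERSE-II (orange), CARE (blue) and cAMP-type element (green), and arrowheads give the strand of the match. The ERSE copies of chaperone genes lie upstream of the RefSeq start, and the CARE of *Trib3* and the ERSE-II of *Dnajb11* lie after it.

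As a group, the members were abundant. Their median mean per kb was 467, compared to 65.3 over all protein-coding genes with a mean above 0. Of the 41 members, 32 lay at or above the 75th percentile, 18 at or above the 90th and 3 at or above the 99th, while 3 lay below the median. With the longest transcript as length, 1 lay at or above the 99th. Their means add up to 0.516% of all counted reads. The 6 genes with the highest means, namely *Calr*, *Canx*, *Hsp90b1*, *Hspa5*, *Pdia3* and *P4hb*, held 55.4% of that sum.

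**Figure D2:**
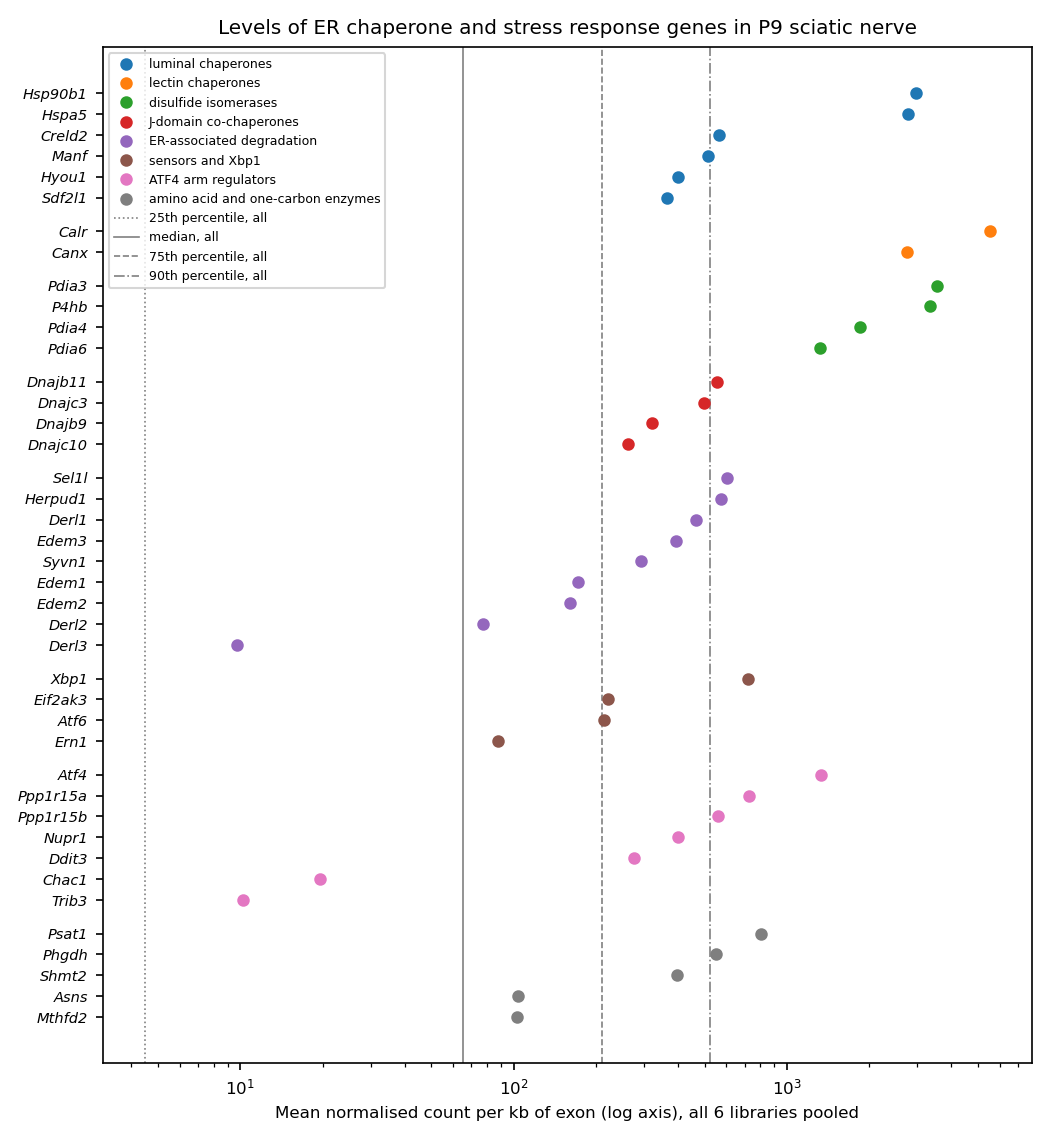
Mean normalised count per kb of exon of each of the 41 members, pooled over 3 *Ep400ΔPNS* and 3 control nerves, on a log axis, grouped by role (colour). Vertical lines mark the 25th, 50th, 75th and 90th percentile of protein-coding genes; *Calr* lies highest at 5523 and *Derl3* lowest at 9.71 per kb.

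The lectin chaperones hold glycoproteins in the ER until they are folded. *Calr*, which encodes the soluble calreticulin (chromosome 8, ENSMUSG00000003814), had the highest level of all members, with a mean of 15907 and 5523 per kb. It ranked 89th among protein-coding genes. *Canx*, which encodes its membrane-bound relative calnexin, had a mean of 12859 and 2740 per kb, so that *Calr* stood 2.02-fold above it. Pdia3, known as ERp57, is the disulfide isomerase that both lectins recruit. Its gene had a mean of 11147 and 3551 per kb, which placed it between the lectins per kb, though its mean was below both of theirs.

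The other isomerases were abundant too. *P4hb*, which encodes protein disulfide isomerase and also serves as the beta subunit of collagen prolyl 4-hydroxylase, had 3328 per kb. *Pdia4* and *Pdia6*, which encode isomerases found in complexes with BiP, had 1850 and 1323 per kb. All 4 isomerase genes were thus above the 96th percentile, the lowest being *Pdia6* at 96.9. With the longest transcript as length, *Pdia4* was the lowest at 97.1 and *Pdia6* lay at 97.8. With no division by length, *Pdia4* was again the lowest at 95.2 and *Pdia6* lay at 95.9.

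Luminal chaperones fell into a high pair and a lower set. *Hsp90b1*, which encodes the HSP90 of the ER, Grp94, had a mean of 11995 and 2975 per kb. *Hspa5*, which encodes the HSP70 of the ER, BiP, was close with a mean of 11749 and 2778 per kb. The 4 other genes of this role had between 363 and 563 per kb. *Hyou1*, which encodes the nucleotide exchange factor Grp170, had 398 per kb, or 6.98-fold less than *Hspa5*. *Sdf2l1*, whose product forms a complex with ER J-domain proteins, was the lowest of this role at 363 per kb. *Manf* and *Creld2*, which encode small secretable proteins induced by ER stress, had 515 and 563 per kb. The exons of *Manf* overlap those of *Dcaf1* on the opposite strand over 146 bases. The library kit was stranded, but the counting is not stated to use strand, so that reads of such pairs may be lost or mixed.

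J-domain proteins deliver clients to BiP and start its ATPase. Their 4 genes lay between 262 and 555 per kb, below *Hspa5* in each case. *Dnajb11*, which encodes ERdj3, had 555 per kb and *Dnajc3*, which encodes the co-chaperone p58IPK, had 499. *Dnajb9*, which encodes ERdj4, a repressor of IRE1, had 320 per kb. *Dnajc10*, which encodes the reductase ERdj5, had 262 per kb and was the lowest.

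ER-associated degradation spanned a wide range, with a 62.1-fold difference between its highest and lowest member. *Sel1l*, which encodes the adaptor of the main ubiquitin ligase complex, led with a mean of 5156 and 603 per kb. *Syvn1*, which encodes the ligase Hrd1 itself, had 293 per kb, so that the adaptor stood 2.05-fold above the ligase. *Herpud1*, which encodes a membrane component of the same complex, had 574 per kb. Edem proteins trim mannose from glycoproteins that are to be degraded. *Edem3* had 391 per kb, 2.27-fold above *Edem1* with 172 per kb, and *Edem2* was near *Edem1* with 160 per kb. With the longest transcript as length, *Edem2* stood above *Edem1*, at 242 and 183 per kb.

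Derlins form part of the channel for proteins leaving the ER, and their 3 genes had unlike levels. *Derl1* had a mean of 1553 and 467 per kb. *Derl2* had a mean of 620 and 77.0 per kb, 6.06-fold below *Derl1*, or 3.45-fold with the longest transcript as length. The annotated exons of *Derl2* are long (8049 bases) and overlap those of *Mis12* on the opposite strand over 231 bases, so its level per kb is uncertain. *Derl3*, which is known from secretory tissues, had a mean of 19.4 and 9.71 per kb and was the lowest member by both. With the longest transcript as length, *Trib3* was lowest at 10.7 per kb and *Derl3* had 14.7. The promoter of *Derl3* held an ERSE, as shown above.

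Per kb, genes of the stress sensors were less abundant than those of the chaperones. By mean the order was mixed, with *Atf6* at 1974 above *Sdf2l1* at 403 but below *Hspa5* at 11749. *Eif2ak3*, which encodes PERK, and *Atf6* were close at 222 and 214 per kb. *Ern1*, which encodes IRE1α, had 88.1 per kb and stood 31.5-fold below *Hspa5*. *Xbp1*, the mRNA that IRE1 splices, had a mean of 2340 and 720 per kb, 8.18-fold above *Ern1*. Counts per gene do not separate spliced from unspliced *Xbp1*, and all of these values are of RNA and not of sensor activity.

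In the ATF4 arm, 5 of 7 genes lay above the 80th percentile and *Chac1* and *Trib3* below the 35th. With no division by length, 3 of the 7 lay above the 80th, as *Nupr1* and *Ddit3* then lay at 74.8 and 59.7. *Atf4*, the transcription factor gene that is translated when eIF2α is phosphorylated, had a mean of 3148 and 1335 per kb. *Ppp1r15a* and *Ppp1r15b*, which encode the inducible and the constitutive subunit of the eIF2α phosphatase, had 728 and 562 per kb. *Nupr1*, which encodes a stress-induced nuclear protein, had 398 per kb. *Ddit3*, which encodes CHOP, had a mean of 474 and 277 per kb, 4.83-fold below *Atf4*. With the longest transcript as length it was 3.19-fold below, and its percentile of 80.6 became 85.2, or 59.7 with no division by length. The exons of *Ddit3* overlap those of *Mars*, which encodes methionyl-tRNA synthetase, on the opposite strand over 68 bases. On the same strand they overlap over 105 bases with another GENCODE M21 gene also named *Ddit3*, which has no mean here. *Chac1*, which encodes a glutathione-degrading enzyme, and *Trib3*, which encodes a pseudokinase that restrains ATF4, had means of 32.1 and 21.8. Per kb, *Atf4* stood 68.2-fold above *Chac1* and 130-fold above *Trib3*.

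The biosynthetic enzymes are known ATF4 targets as well but lay higher than *Chac1* and *Trib3*. *Psat1* and *Phgdh*, which encode enzymes of serine synthesis, had 804 and 549 per kb. *Shmt2*, which encodes the mitochondrial enzyme that splits serine, had 395 per kb, and *Mthfd2*, which encodes the next enzyme of mitochondrial one-carbon metabolism, had 103 per kb. *Asns*, which encodes asparagine synthetase, had 103 per kb too. The serine genes thus lay above the 90th percentile, and *Asns* and *Mthfd2* near the 59th. *Shmt2* and *Ddit3* are the closest members on the genome, 220834 bases apart on chromosome 10 of mm10 (GENCODE M21), where *Ddit3* ends at 127296288 and *Shmt2* starts at 127517123.

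Only for genes with few reads could the mean be split into the whole reads of the 6 libraries, because each library contributes whole multiples of a fixed step. These libraries have no genotype attached to them, and none was assigned. They are numbered by falling size factor, which is 1.20 for library 1 and 0.908 for library 6. *Chac1* had 26, 15, 20, 23, 77 and 27 reads in libraries 1 to 6. *Derl3* had 11, 17, 28, 4, 45 and 9 reads, and *Trib3* had 28, 20, 14, 25, 37 and 8 reads. All 3 genes were highest in library 5, which held 43.0% of the normalised count of *Chac1*, 41.6% of that of *Derl3* and 30.4% of that of *Trib3*. Some scarce markers of other cell types were highest there too. Of the plasma cell markers, *Tnfrsf17* had 22 of its 35 reads and *Mzb1* 3 of its 6 reads in library 5, while *Jchain* had none of its 11 reads there. Of the T cell markers, *Cd3e* had 15 of its 23 reads in library 5, while *Cd3g* was highest in library 1 and *Trac* in library 4. The neuronal marker *Rbfox3* had 11 of its 28 reads in library 5. The part of these cells in the counts of the members was not tested. Of 1073 protein-coding genes with means of 15 to 40 that could be split, 26.2% were highest in library 5, and the median share of the highest library was 28.2%. The low means of *Chac1* and *Derl3* thus rest to a large part on 1 library, whose genotype is not known here.

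**Figure D3:**
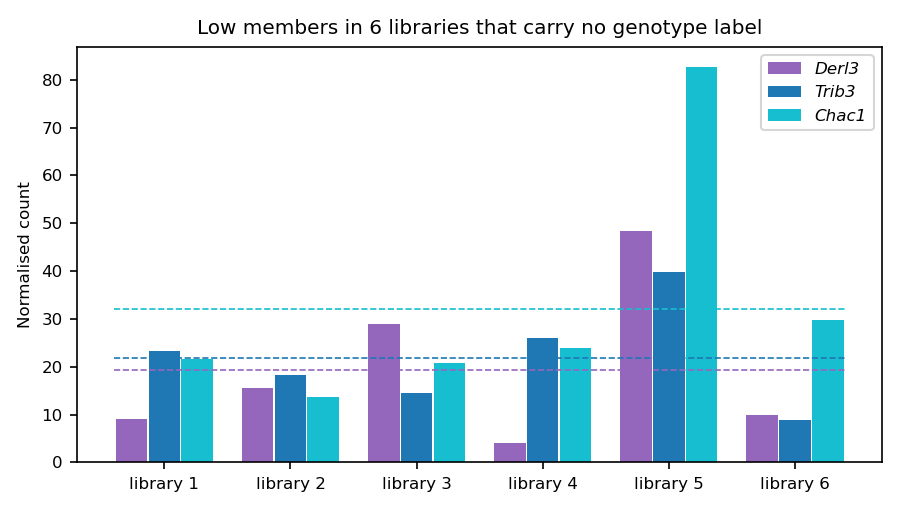
Normalised count of *Derl3*, *Trib3* and *Chac1* in each of 6 libraries without a genotype label, numbered by falling size factor. Dashed lines give each gene's mean over the libraries; in library 5 *Chac1* reaches 82.7, *Derl3* 48.3 and *Trib3* 39.7.

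Other genes of the same pathways were grouped in lists, which like the members were chosen with earlier results of these data known. The 25 genes of ER translocation and N-glycosylation had a median of 522 per kb, with the translocon-associated genes *Ssr2* and *Ssr3* highest at 1536 and 1482 and the signal peptidase gene *Sec11c* and the glucosyltransferase gene *Uggt2* lowest at 103 and 72.9. Other ER folding genes had a median of 470 per kb over 29 genes. *Serpinh1*, which encodes the collagen chaperone Hsp47, was the highest of these at 9362 per kb and stood above every member. *Os9*, which encodes a lectin of ER-associated degradation, followed at 1708. The lowest were the thioredoxin-like gene *Txndc11* and the oxidase gene *Ero1lb*, with 74.4 and 27.0 per kb.

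Among 19 other genes of ER-associated degradation, the median was 365 per kb, compared to 293 for the 9 members of that role. *Vcp*, which encodes the ATPase that extracts substrates, and *Rad23b*, which encodes a ubiquitin receptor, were highest at 869 and 817. *Rnf139*, which encodes a ubiquitin ligase, and *Ngly1*, which encodes a deglycosylase, were lowest at 106 and 88.4. Of 17 other sensors and transducers, *Creb3l1*, which encodes a membrane-bound transcription factor known from collagen-secreting cells, reached 2088 per kb and thus stood above *Ern1*, *Atf6*, *Eif2ak3* and *Xbp1*. *Tmbim6*, which encodes an ER membrane protein, followed at 1518. *Creb3l4* and *Ern2*, which encodes the IRE1β of gut epithelium, were lowest per kb, at 12.3 and 0.322, with means of 20.7 and 0.953.

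The 30 other ATF4 and amino acid response targets had a median of 175 per kb. The median was 398 for the 7 members of the ATF4 arm, which include *Atf4* itself, and 395 for the 5 biosynthetic enzymes. *Atf5*, which encodes a related transcription factor, and *Slc3a2*, which encodes the heavy chain of amino acid exchangers, were highest at 1356 and 1003. *Slc7a11*, which encodes the cystine exchanger, and *Fgf21*, which encodes a hormone, were lowest per kb, at 2.05 and 0.876, with means of 28.5 and 0.833. Chaperones of the cytosol and mitochondria had a median of 605 per kb over 20 genes. *Hsp90ab1* and *Hspa8*, which encode constitutive cytosolic chaperones, were highest at 10307 and 3557. The heat-inducible *Hspa1b* and *Hspa1a*, near-identical copies between which reads may be lost, were lowest at 89.3 and 58.1.

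**Figure D4:**
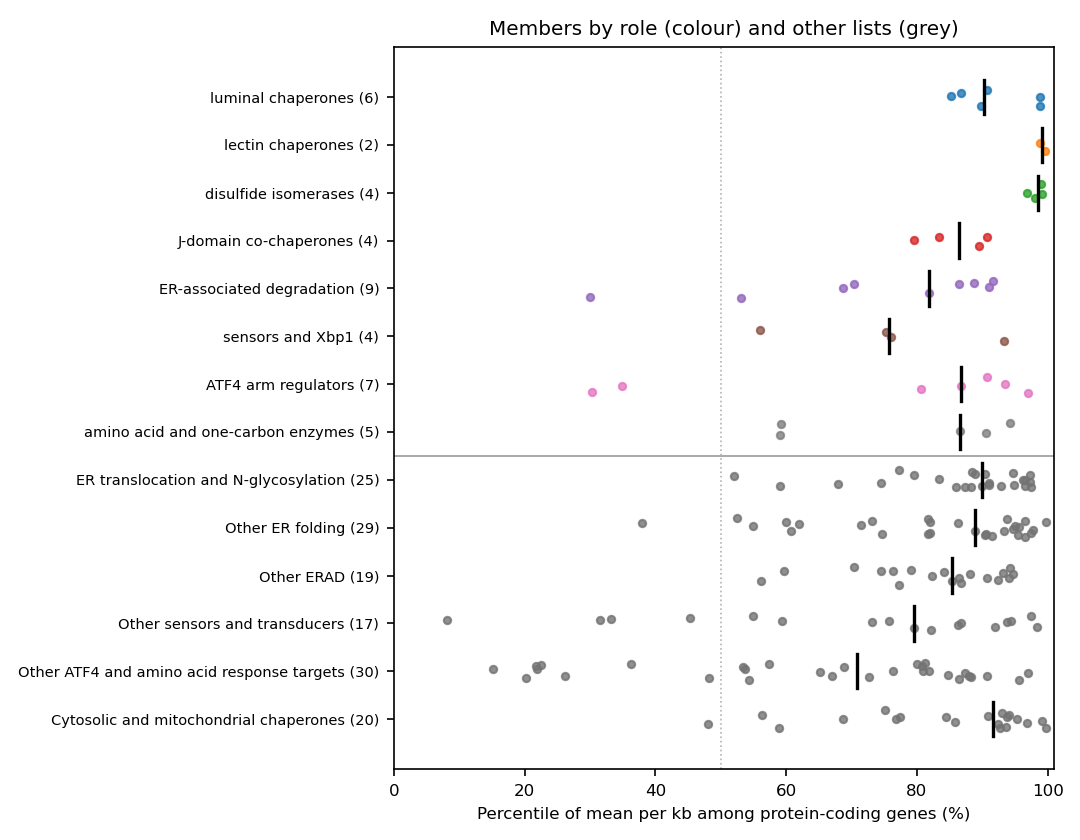
Percentile of the mean per kb among 18574 protein-coding genes for the members by role (colour) and for other lists of the same pathways (grey), with the number of genes in parentheses and medians as black bars. The lectin chaperones and isomerases lie above 96, while *Trib3* of the ATF4 arm lies at 30.3.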

How the data were processed

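RNA-Seq was analysed for 3 *Ep400ΔPNS* and 3 control sciatic nerves. Libraries were made by the authors with a stranded mRNA kit. Alignment to mm10 used STAR, given as 2.5.1 in the submitters' notes. The authors obtained gene counts from HTSeq, keeping reads with a single position, and passed them to DESeq2. The deposited signal values are the authors' means over all 6 libraries of counts divided by size factors, although the header calls them raw. The 6 other numeric columns hold the authors' own genotype comparison (fold changes, standard errors, Wald statistics and p-values) and were not used. A count model per genotype, written for the case of columns for single libraries, was therefore not run, and protein features were not analysed.

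Means were divided by the union of exons in GENCODE M21, to which 46005 of 46603 gene IDs were matched. The table's header names Ensembl 82. Motifs were counted in RefSeq promoters of GRCm38.p6, the assembly that mm10 names. A mean of at most 40 was split into whole reads with the 6 values that 1 read gives. Tested on simulated data, this recovered 95 of 95 genes. The sum of means (25608535) is the depth known here, so precision is not given. The members and lists were chosen with earlier results of these data known. All members are named, and of each other list the 2 highest and 2 lowest genes per kb. The tools were matplotlib 3.10.9, scipy 1.17.1, pandas 2.3.3 and numpy 2.4.6 in Python 3.11.15. A result on 1 marker gene is not reported here.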

Additional observations from a re-analysis of the deposited data

How the results depend on the processing

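No paired analysis was possible because the columns carry no replicate numbers and no result comes from a test. For the same reason other count tools, fits without a filter and fits that leave out a replicate were not run, and protein features were not analysed. The members' median percentile was 88.7. It was 86.6 with the length of the longest transcript, 82.6 with no division by length, 92.8 among all genes with a mean above 0 and 85.3 among protein-coding genes with a mean of at least 10. The 32 members at or above the 75th percentile became 28 to 34 in these settings. Without division by length, 10 of 41 members moved by over 10 percentile points, most of all *Sdf2l1* by -28.7. With the longest transcript none did, and the farthest moves were -5.62 for *Edem1* and 6.16 for *Derl2*. With 1 mismatch allowed, 15 members, among them *Ddit3* of the ATF4 arm, had an ERSE, as did 466 of all 27025 genes with a window. On the given strand alone 6 members had one. With means of at most 20 in place of 40, 1 member (*Derl3*) was split into reads. The members at or above the 90th percentile, 18 by exon length, were 16 with the longest transcript and 13 with no division by length. Depth limits the 3 members with means under 40, which rest on 114 to 188 reads in all, and more so *Fgf21* and *Ern2* of the other lists, with 6 reads each.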

Other observations

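Of the 28 genes outside the members with an ERSE in their promoter window, only those with a mean above 0 and a matched exon length were ranked. These 18 genes had a median percentile of 26.6. It was 96.9 for the 9 members with an ERSE, but 88.7 over all 41 members, which were high as a group. *Hnrnpa3*, which encodes an RNA-binding protein, was the one of the 18 at or above the 75th percentile. Only *Ero1b*, listed as *Ero1lb*, belonged to a pathway list, at the 37.9th percentile. *Alg12*, which encodes a mannosyltransferase of N-glycan synthesis, shared its copy with *Creld2*, and *1700122E12Rik* shared its copy with *Calr*. In these 2 pairs 1 copy lies in the windows of both genes. These genes were chosen after their values were seen.

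Some genes of the pathway lists with few reads differed widely between the 6 libraries without a genotype label. *Stc2*, which encodes a secreted ER stress target, had 26, 14, 3, 32, 56 and 35 reads in libraries 1 to 6. *Creb3l4* had 57, 29, 25, 14, 2 and 7 reads and was lowest in library 5, where *Chac1*, *Derl3* and *Trib3* were highest. *Slc7a11* had 25, 32, 22, 34, 29 and 29 reads, the highest normalised count being 1.69-fold above the lowest. These genes too were picked after their values were seen.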
